A study of Rattus norvegicus with 8 samples.

Results

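The miR-125, miR-99 and miR-100 family was described by 8 mature microRNAs (miRNAs) of the 719 on a rat miRNA array, chosen by name: rno-miR-99b-5p, rno-miR-125a-5p, rno-miR-99b-3p, rno-miR-125a-3p, rno-miR-99a-5p, rno-miR-100-5p, rno-miR-125b-5p and rno-miR-99a-3p, where rno stands for the rat. They were measured in C6 cells, a rat glioblastoma line grown with horse and fetal bovine serum. The 4 groups were C6 cells given haloperidol at 2 µg/ml, risperidone at 4 µg/ml or clozapine at 25 µg/ml, each added every day for 5 days, and untreated control C6 cells harvested after the same 5 days, with 2 arrays a group and 8 in all. Haloperidol is a typical antipsychotic, risperidone and clozapine are atypical ones, and the labels mention no vehicle for the controls. The 2 arrays of each group are described as biological repeats, with nothing said of how the cultures were kept apart. C6 is 1 tumour line, so no other brain cell was present. The glioma miRNA miR-21-5p was detected on all 8 arrays, as were miR-219-5p and miR-338-3p, known from oligodendrocytes, while the neuronal miR-124-3p and all 5 epithelial markers were detected on 0. Of the leukocyte markers miR-150-5p was detected on 5 arrays, miR-223-3p on 4, miR-142-3p on 3 and miR-142-5p on 0, and of the red cell and serum markers miR-451-5p on 2 and miR-144-3p on 0.

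A miRNA is cut from a hairpin in a longer transcript, and its bases 2 to 8, the seed, pair with target messenger RNAs. In mammals the miR-99/100 and miR-125 hairpins sit on either side of a let-7 hairpin. The miR-99 and miR-100 miRNAs are known in human cells to repress the kinase mTOR, miR-125b is known in human and zebrafish cells to repress p53, and let-7 is known to hold back growth genes such as Hmga2 and the Ras genes. In the rat annotation GRCr8, Mir99b, Mirlet7e and Mir125a lie on chromosome 1 within 696 bases, Mir99a, Mirlet7c1 and Mir125b2 on chromosome 11, and Mir100, Mirlet7a-2 and Mir125b1 on chromosome 8. RefSeq sequences (GRCr8) were matched for 7 of the 8 members, all but miR-99a-5p. They are shown 5′ to 3′ with the seed in capitals, because the seed sorts the members into groups, beside the let-7 of the chromosome 1 locus and the related miR-10a-5p.
miR-99b-5p: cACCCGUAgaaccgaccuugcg
miR-100-5p: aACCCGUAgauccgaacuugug
miR-125a-5p: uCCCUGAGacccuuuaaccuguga
miR-125b-5p: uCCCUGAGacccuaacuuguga
miR-99b-3p: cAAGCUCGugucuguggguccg
miR-99a-3p: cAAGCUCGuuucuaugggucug
miR-125a-3p: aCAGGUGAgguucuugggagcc
let-7e-5p: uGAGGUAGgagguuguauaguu
miR-10a-5p: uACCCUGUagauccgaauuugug

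The seed ACCCGUA was shared by miR-99b-5p (chr1:67350070-67350091, plus strand) and miR-100-5p (chr8:50798307-50798328, plus strand), and by no other matched miRNA of the array. Counted from the 5′ end, with miR-99b-5p's base first, these 22-base miRNAs differed at 4 positions, C1A, A11U, C16A and C21U. The seed CCCUGAG was shared by miR-125a-5p (chr1:67350689-67350712, plus strand), miR-125b-5p and, outside the family, miR-351-5p. miR-125a-5p and miR-125b-5p were identical over their first 13 bases. The 3p arms miR-99b-3p and miR-99a-3p shared AAGCUCG and differed at 3 positions, with miR-99a-3p's base first U10G, A14G and U21C, while miR-125a-3p shared its seed with no other matched miRNA. Members this alike may share signal between probes, which was not tested. miR-99a-5p, without a matched sequence, is not placed in or outside any seed group here. miR-125b-5p can come from 2 hairpins, which the array does not tell apart.

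Of the 8 members, 7 were detected on all 8 arrays. The exception, miR-99a-3p, was detected on 6, and not on replicate 2 of risperidone or of clozapine. All 8 members passed the filter that kept 243 of the 719 miRNAs, which asks for detection on both arrays in 1 or more groups. Values are log2 levels, where 0 is the array's own 75th percentile among probes that every array measured above background. Each level is a sum over the miRNA's own probes, 2 or 4 for the members, so levels of different miRNAs are not set against each other. The arrays detected 193 to 254 miRNAs each, all lay on a single slide, and each group had a slide column of its own, so column and group cannot be told apart. Control replicate 1 stood apart: its mean squared deviation was 0.50, against 0.0521 to 0.227 on the others. Risperidone replicate 2 had the next largest, 0.227, and the fewest detected miRNAs, 193. Its 75th percentile was also the lowest, 383 against 686 to 1479 on the other arrays.

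No member passed the threshold (adjusted p under 0.05, limma over all 243 tested miRNAs) under any drug, although all 8 had log2 fold changes below 0 under each, a count that depended on the scaling and the background correction. Scaling by the percentile over all probes left 7, 1 and 0 of the 8 below 0 with haloperidol, risperidone and clozapine, normexp left 8, 5 and 4, quantile normalization 7, 7 and 7, and no scaling 6, 8 and 8. On each array 17.8% to 25.9% of all probes were above background, so the 75th percentile over all probes fell near the edge of background. The percentile over all probes moved the median of all tested miRNAs to 0.35 with risperidone and 0.42 with clozapine, and relative to it 6 and 8 of the 8 members were lower. Normexp moved that median to 0.38 and 0.76, with 6 and 6 of the members below it. The members' median log2 fold change was -0.33 under haloperidol, -0.29 under risperidone and -0.38 under clozapine. The medians of all 243 tested miRNAs were -0.15, -0.15 and -0.17 in the same order, so most of the array lay below 0 as well. With haloperidol 147 of 243 miRNAs (60.5%) had a log2 fold change below 0, with risperidone 147 (60.5%) and with clozapine 162 (66.7%). Each drug called 0 of 243 (0%). At an unadjusted p under 0.05, 8 miRNAs (3.29%) lay past it with haloperidol, 14 (5.76%) with risperidone and 28 (11.5%) with clozapine, and none of the members was among them. The 3 drugs share the 2 control arrays, so the likeness of their values is not independent evidence. The size depended on the control pair: without control replicate 1 the members' medians were -0.16, -0.11 and -0.23 for haloperidol, risperidone and clozapine, and without control replicate 2 they were -0.45, -0.44 and -0.54. Without control replicate 1 the medians over all tested miRNAs were -0.11, -0.13 and -0.18, so the members' median was no longer below that of all miRNAs with risperidone.

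**Figure D1:**
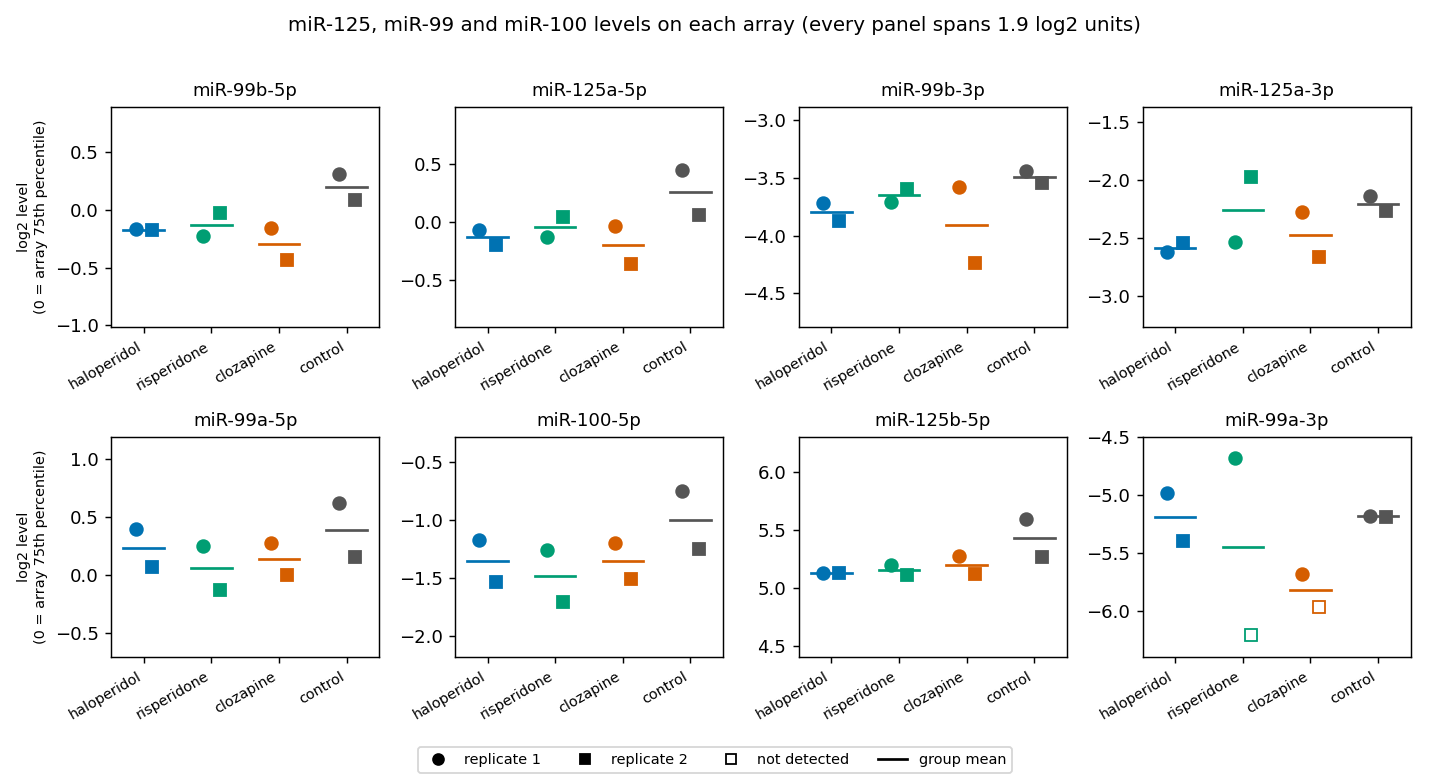
Log2 levels of the 8 members on each array (y axis, 0 is the array's 75th percentile) for haloperidol, risperidone, clozapine and control cells (x axis). Circles are replicate 1, squares replicate 2, open symbols arrays where the miRNA was not detected and lines group means. miR-99b-5p, miR-125a-5p and miR-99b-3p are below both control arrays on all 6 drug arrays under the scaling plotted.

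rno-miR-99b-5p, from the chromosome 1 locus, had log2 levels of -0.17 and -0.18 in haloperidol cells, -0.23 and -0.03 in risperidone cells and -0.16 and -0.43 in clozapine cells, against 0.30 and 0.08 in control cells. All 6 drug arrays lay below both control arrays, which was so for 49 of the 243 tested miRNAs (20.2%). Its log2 fold change was -0.37 (SE 0.205, adjusted p = 0.595) for haloperidol, -0.32 (adjusted p = 0.552) for risperidone and -0.49 (adjusted p = 0.425) for clozapine, the last a level 1.4-fold lower than in control cells. The 95% interval for haloperidol ran from -0.86 to 0.13. Against the control array of the same replicate number, the differences were -0.47 and -0.26 for haloperidol, -0.53 and -0.11 for risperidone and -0.47 and -0.52 for clozapine in replicates 1 and 2. All 6 were below 0 for 6 of the 8 members (all but miR-125a-3p and miR-99a-3p), as for 86 of the 243 tested miRNAs (35.4%), a count added after seeing the data. Its 2 probes gave -0.37 and -0.36 for haloperidol, -0.32 and -0.32 for risperidone and -0.53 and -0.47 for clozapine.

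rno-miR-125a-5p, cut from the same transcript, had log2 levels of -0.07 and -0.19 in haloperidol cells, -0.13 and 0.04 in risperidone cells and -0.03 and -0.36 in clozapine cells, against 0.45 and 0.06 in control cells. These 6 drug arrays were also below both control arrays, with risperidone replicate 2 close beneath control replicate 2. Its log2 fold changes were -0.39 (SE 0.230, adjusted p = 0.595) for haloperidol, -0.30 (adjusted p = 0.552) for risperidone and -0.45 (adjusted p = 0.470) for clozapine. Against the same-numbered control array the differences were -0.52 and -0.26 for haloperidol, -0.58 and -0.02 for risperidone and -0.48 and -0.43 for clozapine, so the risperidone value came almost wholly from replicate 1.

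The 3p arms of those hairpins also had log2 fold changes below 0 in each comparison and missed the threshold (above 0 with risperidone and clozapine under all-probe scaling and normexp). rno-miR-99b-3p had log2 levels of -3.72 and -3.87 in haloperidol cells, -3.71 and -3.60 in risperidone cells and -3.58 and -4.24 in clozapine cells, against -3.44 and -3.55 in control cells. It was the third member with all 6 drug arrays below both control arrays. rno-miR-125a-3p had log2 levels of -2.62 and -2.54 in haloperidol cells, -2.54 and -1.97 in risperidone cells and -2.27 and -2.66 in clozapine cells, against -2.14 and -2.27 in control cells. Its risperidone arrays lay on both sides of the control arrays, and its log2 fold change there was -0.05 (95% interval -0.67 to 0.57), and it was 0.23 without risperidone replicate 1. Under haloperidol it was -0.38 (adjusted p = 0.595) and under clozapine -0.26 (adjusted p = 0.689).

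let-7e-5p, whose hairpin lies between Mir99b and Mir125a, had log2 levels of 1.45 and 1.49 in haloperidol cells, 1.26 and 1.61 in risperidone cells and 1.47 and 1.26 in clozapine cells, against 1.99 and 1.69 in control cells. All 6 drug arrays were below both control arrays for it too. Its log2 fold changes were -0.37, -0.40 and -0.48 for haloperidol, risperidone and clozapine, with adjusted p = 0.595, 0.552 and 0.469. let-7c-5p and let-7a-5p, which the other clusters also carry but which have further hairpins, had log2 fold changes between -0.42 and -0.33. The 3p arm let-7c-1-3p, close to background, had a log2 fold change of -1.20 with risperidone (95% interval -2.14 to -0.25, unadjusted p = 0.0209, adjusted p = 0.552), and its risperidone replicate 2 was not detected. That value was -0.72 without risperidone replicate 2 and -1.67 without replicate 1, -0.53 with the brightest probe, -0.56 with quantile normalization and 0.46 with normexp. let-7a-1-3p, detected on all 8 arrays, had log2 fold changes of -0.26, -0.13 and -0.12 for haloperidol, risperidone and clozapine. The opposite arm miR-125b-2-3p, detected on 6 arrays and at the floor on control replicate 1, went up with 2 drugs. Its values were 0.70, 0.55 and -0.06 in the same order (SE 0.561, adjusted p = 0.617, 0.594 and 0.983). let-7e-3p, miR-125b-1-3p and miR-100-3p were detected on 0 arrays.

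rno-miR-99a-5p had log2 levels of 0.40 and 0.07 in haloperidol cells, 0.25 and -0.13 in risperidone cells and 0.28 and -0.00 in clozapine cells, against 0.62 and 0.15 in control cells. In every drug group the higher array was above the lower control array, so the groups overlapped. Against the same-numbered control array the differences were -0.22 and -0.09 for haloperidol, -0.37 and -0.28 for risperidone and -0.34 and -0.16 for clozapine, below 0 in all 6 as for miR-99b-5p. The log2 fold changes were -0.15, -0.33 and -0.25 for haloperidol, risperidone and clozapine, with adjusted p = 0.775, 0.565 and 0.709.

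rno-miR-100-5p, which has the seed of miR-99b-5p, had log2 levels of -1.18 and -1.53 in haloperidol cells, -1.26 and -1.71 in risperidone cells and -1.20 and -1.51 in clozapine cells, against -0.75 and -1.25 in control cells. Only the risperidone arrays lay below both control arrays. Against the same-numbered control array, risperidone differed by -0.51 in replicate 1 and -0.46 in replicate 2. The log2 fold change was -0.49 with risperidone (SE 0.285, adjusted p = 0.552) and -0.36 with each of haloperidol and clozapine. With the replicate number as a block its unadjusted p was 0.0484, 0.0156 and 0.0483 for haloperidol, risperidone and clozapine, and its adjusted p was 0.287, 0.165 and 0.205. In that fit the unadjusted p was under 0.05 for 1, 1 and 2 of the 8 members, the other being miR-99b-5p with clozapine (unadjusted p = 0.0353, adjusted p = 0.189), against 39 (16%), 59 (24.3%) and 57 (23.5%) of the 243 tested miRNAs.

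rno-miR-125b-5p had log2 levels of 5.13 and 5.13 in haloperidol cells, 5.20 and 5.12 in risperidone cells and 5.28 and 5.12 in clozapine cells, against 5.60 and 5.27 in control cells. Haloperidol and risperidone arrays lay below both control arrays and clozapine arrays did not. The log2 fold changes were -0.30, -0.27 and -0.23 for haloperidol, risperidone and clozapine, with adjusted p = 0.595, 0.552 and 0.640. With quantile normalization they were -0.04, -0.03 and -0.03. Against the same-numbered control array the differences were -0.47 and -0.13 for haloperidol, -0.40 and -0.15 for risperidone and -0.32 and -0.14 for clozapine, below 0 in all 6.

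rno-miR-99a-3p was near the lowest measurable level, and its values were the most spread of the members. Its log2 levels were -4.98 and -5.40 in haloperidol cells, -4.68 and -6.21 in risperidone cells and -5.68 and -5.97 in clozapine cells, against -5.18 and -5.19 in control cells, where -6.21 is the floor, the lowest value allowed. None of its 4 probes was above background on more than 4 of the 8 arrays, and clozapine replicate 2, above the floor, was also not detected. The log2 fold changes were -0.00, -0.26 and -0.64 for haloperidol, risperidone and clozapine, with an SE of 0.478, and all 3 were above 0 with quantile normalization. Counting all members, both arrays of the drug lay below both control arrays for 5 of 8 in each comparison, against 80 of 243 (32.9%), 80 of 243 (32.9%) and 83 of 243 (34.2%) of the tested miRNAs for haloperidol, risperidone and clozapine. Under other settings the members' counts were 1, 0 and 0 for scaling on all probes and 5, 2 and 2 with quantile normalization. They were 0, 2 and 8 without scaling and 5, 1 and 1 with normexp. No share over all tested miRNAs is given for these settings, so these counts have no background to be read against. Without scaling, the median of all tested miRNAs was 0.09 for haloperidol, -0.64 for risperidone and -0.55 for clozapine.

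**Figure D2:**
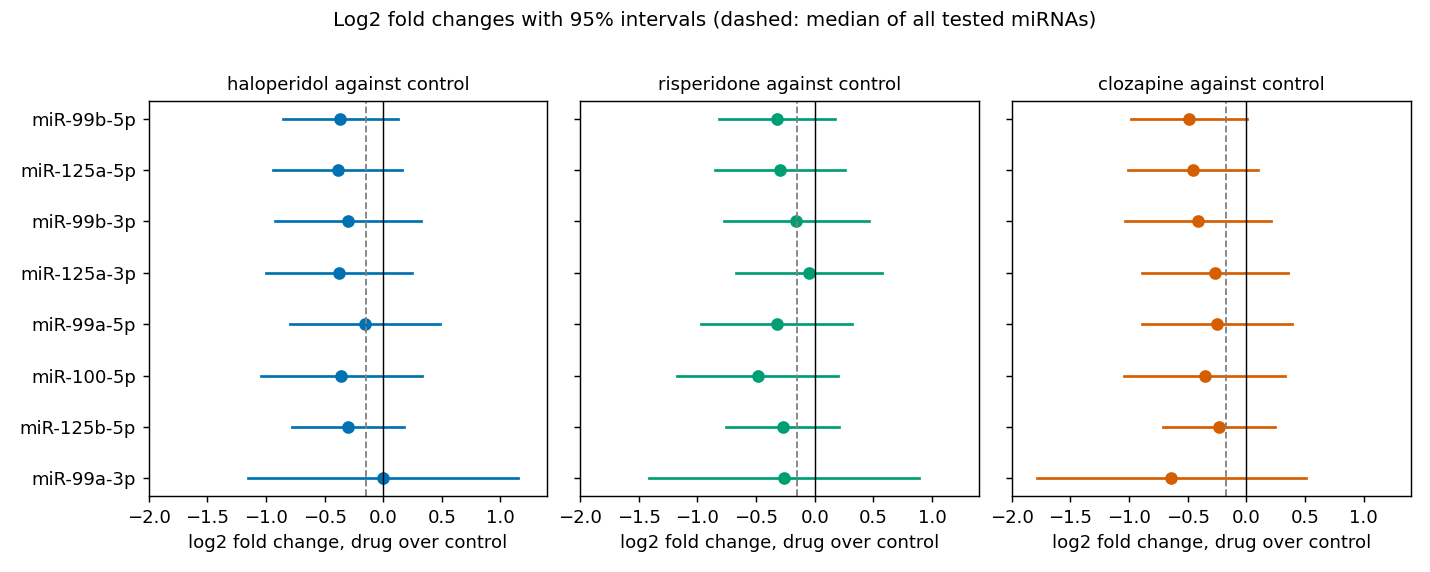
Log2 fold change of each drug over control (x axis) with its 95% interval from the limma fit, for the 8 members (y axis). The dashed line is the median of all 243 tested miRNAs, -0.15, -0.15 and -0.17. Every interval reaches above 0, and scaling by the percentile over all probes puts most risperidone and all clozapine values above 0, as normexp does for 3 and 4 of them.

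The chromosome 1 pair, miR-99b-5p and miR-125a-5p, was set against miR-99a-5p, miR-100-5p and miR-125b-5p. A factor that multiplies a whole array cancels in this difference, and no test was run on it. The pair's mean log2 fold change minus that of the other 3 was -0.11 for haloperidol, 0.05 for risperidone and -0.19 for clozapine. By array, the pair minus the others, after centring each miRNA, was -0.12 and 0.03 in haloperidol cells, -0.13 and 0.36 in risperidone cells and -0.10 and -0.16 in clozapine cells, against -0.00 and 0.13 in control cells. Both clozapine arrays were below both control arrays, while haloperidol and risperidone overlapped with the control. With quantile normalization the difference was -0.24, -0.08 and -0.26, so the risperidone value changed sign. The risperidone value depends on replicate 2: it was 0.30 without replicate 1 and -0.19 without replicate 2. Against the control of the same replicate number, the differences for replicates 1 and 2 were -0.12 and -0.09 (haloperidol), -0.13 and 0.23 (risperidone) and, for clozapine, -0.10 and -0.28.

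**Figure D3:**
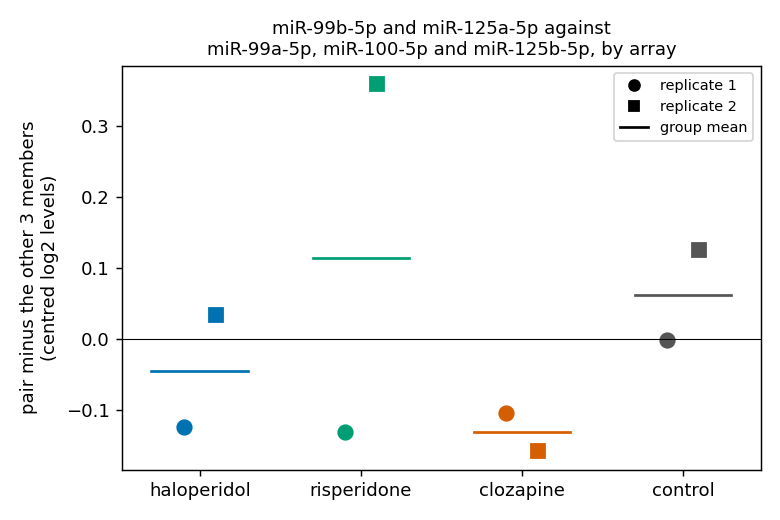
Mean centred log2 level of miR-99b-5p and miR-125a-5p minus that of miR-99a-5p, miR-100-5p and miR-125b-5p on each array (y axis), by group (x axis). Circles are replicate 1, squares replicate 2 and lines group means. Risperidone replicate 2 is the highest array at 0.36 and the array with the fewest detected miRNAs, 193.

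Within the pair the 2 miRNAs varied together. The root mean square difference of their centred log2 levels over the 8 arrays was 0.0577, the smallest of 184 miRNAs compared with miR-99b-5p, followed by let-7e-5p at 0.0598 and miR-1839-3p at 0.0648. The median over those 184 was 0.331. For miR-125a-5p the nearest were let-7c-5p at 0.0543, miR-99b-5p and miR-1839-3p at 0.0705. For miR-100-5p the nearest were miR-450a-5p at 0.0366, miR-196b-5p at 0.0631 and miR-99a-5p at 0.0793. For miR-99a-5p they were miR-450a-5p, miR-196b-5p and miR-26b-5p at 0.0651 to 0.0776, and for miR-125b-5p they were miR-15b-5p, miR-191a-3p and miR-25-3p at 0.0715 to 0.0753. These are descriptions over 8 arrays of 1 slide, scaled together.

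No member passed the threshold between 2 drugs, with adjusted p = 1 for all, and risperidone against haloperidol, clozapine against haloperidol and clozapine against risperidone each called 0 of 243 miRNAs (0%). At an unadjusted p under 0.05 they gave 0 (0%), 3 (1.23%) and 1 (0.412%) in the same order, none of them a member. The F test over the 4 groups called 0 of 243 (0%), with 6 (2.47%) at an unadjusted p under 0.05. For miR-99a-3p both clozapine arrays, 1 of them not detected, lay below both haloperidol arrays, as for 39 of 243 tested miRNAs (16%). miR-99b-3p and miR-125a-3p had both risperidone arrays above both haloperidol arrays, as 31 of 243 (12.8%) did, with log2 fold changes of 0.14 and 0.33. In the other member comparisons between drugs the arrays overlapped.

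The replicate number is also the slide row. Some members had the same order of replicates in all 4 groups, as many other tested miRNAs did. With arrays scaled by the percentile over all probes, replicate 1 minus replicate 2 over the 4 groups was below 0 for the 5p members. The order within each group was not worked out for that scaling. Replicate 1 was above replicate 2 in all 4 groups for miR-99a-5p (by 0.33, 0.38, 0.28 and 0.46 for haloperidol, risperidone, clozapine and control) and miR-100-5p (by 0.36, 0.45, 0.32 and 0.50), as for 74 of 243 tested miRNAs (30.5%). miR-99a-3p and miR-351-5p, which carries the miR-125 seed, followed the same order in all 4 groups. For miR-99a-3p the control difference was only 0.0056, and replicate 2 of risperidone, at the floor, and of clozapine was not detected. In a comparison added after seeing the data, with the groups as terms, miR-99a-5p had a difference of 0.36 (adjusted p = 0.0775) and miR-100-5p 0.40 (adjusted p = 0.0578), neither past the threshold, against 28 of 240 miRNAs called (11.7%). miR-99b-5p, miR-125a-5p and miR-125b-5p had differences of 0.08, 0.17 and 0.14 and did not have the same order in all groups. miR-10a-5p ran the other way in all 4 groups, as 21 of 243 (8.64%) did, with a difference of -0.79 (adjusted p = 0.0218). Leaving out any 1 array kept the difference between -0.84 and -0.72. With the groups as terms, the array left alone in its group adds nothing, so each such fit rests on the other groups. The call was lost without scaling (-0.17), with normexp (-0.52) and without the filter. The count of 28 was 0 to 12 when any single array was left out. Fewer miRNAs were detected on replicate 2 of each group, 193 to 242, against 233 to 254 on replicate 1, and the part of this in the differences was not tested.

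**Figure D4:**
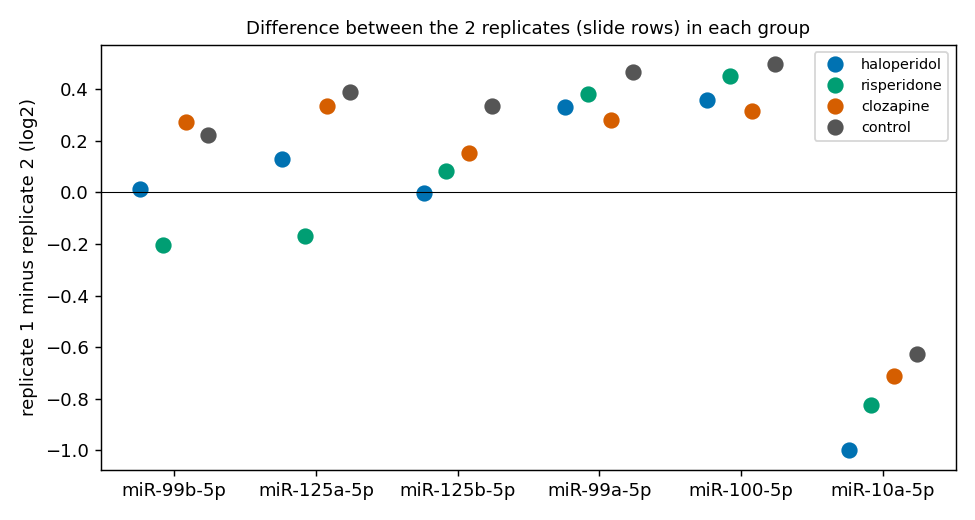
Replicate 1 minus replicate 2 (y axis, log2) in each group (coloured points) for the 5 members that are 5p arms and miR-10a-5p (x axis). miR-99a-5p and miR-100-5p are above 0 in all 4 groups and miR-10a-5p below 0 in all 4.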

How the data were processed

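Agilent 1-colour rat miRNA arrays were hybridised with 100 ng of Cy3-labelled total RNA. Per the file headers, Agilent Feature Extraction (version 10.7.3.1) gave the deposited spot intensity values; the deposited flags (unit other) mark spots above background and outliers. Background-subtracted intensity was averaged per probe without outlier spots, summed per miRNA, scaled on each array to the 75th percentile of the 292 probes that all arrays measured above background, floored at the 5th percentile of detected values (0.0135, log2 -6.21) and taken to log2. The fit took the 243 miRNAs found on both arrays in 1 or more groups and left out 476.

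All 4 groups were fitted with limma 3.58.1 in R 4.3.3 (two-sided, Benjamini-Hochberg, threshold 0.05). The 3 tested miRNAs at the floor on every array were given no call and kept out of limma's variance model; this was chosen after the results were seen, because their zero variance gave false calls when the filter was dropped, and the fit with them kept in is among the alternatives. Total degrees of freedom were 6.49. With 2 arrays against 2, the smallest p an exact permutation test allows is 0.333. The number of arrays limits precision. The method was tested on simulated data with changes larger than any member's log2 fold change in the fit described here. Changes of the members' size were not simulated.

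Members, lists and the named miRNAs (all members, their hairpins' let-7, other arms, miR-10 kin, seed sharers and the 3 nearest miRNAs of each 5p member) were chosen with earlier results of these data known. Alternatives changed the scaling, background correction (normexp, on spot medians), probe summary, filter, floor, arrays in the fit and replicate block. Same-numbered arrays' deviations correlated at 0.163 to 0.714 between groups.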

Additional observations from a re-analysis of the deposited data

How the results depend on the processing

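No alternative called a member in a drug comparison, and the number of arrays limits the precision. With the percentile over all probes the log2 fold changes with risperidone were 0.26 for miR-99b-5p, 0.29 for miR-125a-5p, 0.43 for miR-99b-3p, 0.53 for miR-125a-3p, 0.26 for miR-99a-5p, 0.10 for miR-100-5p, 0.31 for miR-125b-5p, 0.18 for let-7e-5p, 0.25 for let-7c-5p, 0.18 for let-7a-5p and 0.29 for miR-10a-5p. With clozapine they were 0.16 for miR-99b-5p, 0.19 for miR-125a-5p, 0.24 for miR-99b-3p, 0.38 for miR-125a-3p, 0.40 for miR-99a-5p, 0.29 for miR-100-5p, 0.42 for miR-125b-5p, 0.0090 for miR-99a-3p, 0.17 for let-7e-5p, 0.25 for let-7c-5p, 0.23 for let-7a-5p, 0.15 for let-7c-1-3p and 0.14 for miR-10a-5p, and with haloperidol miR-99a-3p was 0.12. Replicate 1 minus replicate 2 there was -0.51 for miR-99b-5p, -0.42 for miR-125a-5p, -0.22 for miR-99a-5p, -0.18 for miR-100-5p and -0.44 for miR-125b-5p. With normexp, risperidone gave 0.45 for miR-99b-3p, 0.33 for miR-125a-3p, 0.58 for miR-99a-3p, 0.46 for let-7c-1-3p and 0.46 for miR-351-5p, and clozapine gave 0.94 for miR-99b-3p, 0.70 for miR-125a-3p, 0.077 for miR-100-5p, 1.14 for miR-99a-3p, 1.07 for let-7c-1-3p, 0.11 for miR-10a-5p and 0.998 for miR-351-5p. With quantile normalization miR-99a-3p was 0.22, 0.44 and 0.17 for haloperidol, risperidone and clozapine, and let-7c-1-3p was 0.11 with clozapine. Without scaling, haloperidol gave 0.11 for miR-99a-5p and 0.26 for miR-99a-3p. For haloperidol and risperidone, miR-99a-3p was 0.080 and 0.11 with the deposited gene-level signal and 0.11 and 0.18 with the brightest probe. Scaling by the percentile over all probes, and leaving out scaling, change only the factor that divides each array. Above the floor they therefore move every miRNA of a comparison by the same amount. The cause of the other turns was not tested.

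The pair minus the other 3 members was -0.24 for haloperidol and -0.08 for risperidone with quantile normalization, the second a change of sign, and -0.12 for clozapine with normexp. Over the fits that each left out 1 array, its lowest and highest values were -0.19 and -0.03 (haloperidol), -0.19 and 0.30 (risperidone), and for clozapine -0.26 and -0.13. Counts of called miRNAs went up to 5 for haloperidol and 6 for risperidone without control replicate 2 (otherwise 0). The labels share replicate numbers between groups but do not say that a number marks a shared culture or day. With the replicate number as a block the clozapine comparison called 4 miRNAs, no member among them, and the other comparisons 0. The comparison of replicates, with 28 called, gave 66 with all probes in the percentile, 4 without scaling, 0 with normexp, 14 with the deposited signal, 5 without the filter, 16 with a lower floor and 36 with the 3 floored miRNAs in the variance model; in that last fit miR-99a-5p (adjusted p = 0.0426) and miR-100-5p (adjusted p = 0.0383) passed. miR-100-5p also passed with the brightest probe (adjusted p = 0.0404) and with the filter for detection on all arrays (adjusted p = 0.0437), so its call depends on the setting. Leaving out 1 array gave counts of 0 to 12.

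Leaving out 1 array turned the sign of some log2 fold changes: miR-99a-5p with haloperidol ran from -0.39 to 0.078, miR-125a-3p with risperidone ran from -0.33 to 0.23, miR-10a-5p with haloperidol ran from -0.86 to 0.13, miR-10a-5p with risperidone ran from -0.71 to 0.11, miR-99a-3p with haloperidol ran from -0.21 to 0.20 and miR-99a-3p with risperidone ran from -1.03 to 0.50.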
